A study of Mus musculus with 16 samples.

Results

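The cells described here are oligodendrocyte precursor cells in which Gpr17 was not detected, from the cortex of THY-Tau22 and wild-type (WT) mice aged 17 months. They were chosen by measured counts: a barcode with 200 to 7000 detected genes, at least 3 summed UMIs of the 7 markers Pdgfra, Cspg4, Tnr, Vcan, Lhfpl3, Cacng4 and Pcdh15, 0 UMIs of Gpr17, and at most 1 UMI summed over 10 genes of microglia, astrocytes, mature oligodendrocytes, endothelial cells and fibroblasts. This gave 754 members among 24578 kept barcodes (3.07%) of 14 libraries. A UMI (unique molecular identifier) marks 1 captured transcript, so that amplified copies count once. The mice were heterozygous THY-Tau22 animals and their WT littermates on a C57Bl6/J background, and the transgene carries human tau with G272V and P301S under the neuronal Thy1.2 promoter; its expression in the members was not measured here. One hemisphere's neocortex per mouse was dissociated after perfusion and captured by Drop-seq, in which cells and barcoded beads share droplets. Each library came from 1 mouse. There were 3 libraries each of WT males, WT females and THY-Tau22 males, and 5 of THY-Tau22 females, named here by replicate number.

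Oligodendrocyte precursor cells persist in the adult cortex, where they divide, carry neurotransmitter receptors and can differentiate into myelinating oligodendrocytes. Gpr17 is a G protein-coupled receptor that rises for a limited time as precursors commit to differentiation and is lost again in mature cells. Precursors without it are therefore usually taken as the earlier or uncommitted fraction, although a transcript can also be missed in a shallowly sequenced cell.

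Libraries held 1041675 to 2237505 UMIs and 1121 to 2526 kept barcodes. A pair of further tables, WT male 3 and THY-Tau22 male 4, shared 2952 of 3000 barcodes under opposite genotypes and was left out, whereas pairs of the other tables shared 3 to 12 and no member barcode occurred in more than 1 library. The titles of WT male 1 and THY-Tau22 female 1 carry the same animal number. Members had a median of 582.5 UMIs and 393 genes, and 8 to 86 came from each library. WT female 2 gave 8 members and THY-Tau22 male 3 gave 10, so results that rest on these libraries are also given without them.

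Among the rule's own markers, which are described without a test, Cacng4, an auxiliary subunit of AMPA receptors, was detected in 78.6% of members. Tnr, the matrix protein tenascin-R, was detected in 72.9%, and Vcan, the proteoglycan versican, in 62.6%. Pdgfra, the receptor for the mitogen PDGF-AA, was detected in 56.0%. Lhfpl3 was detected in 45.1%, Cspg4, the NG2 proteoglycan, in 41.6% and the protocadherin Pcdh15 in 30.5%. Most members were selected on several markers, since 22 (2.92%) carried only 1 of the 7 and 208 (27.6%) carried 3. In the GENCODE annotation of GRCm38, Pdgfra lies at chr5:75152292-75198215 on the plus strand, Cspg4 at chr9:56865033-56899870 on the plus strand and Tnr at chr1:159523769-159931729 on the plus strand. Vcan lies at chr13:89655312-89742509 on the minus strand and Cacng4 at chr11:107732357-107794557 on the minus strand.

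The precursor markers that the rule did not use were detected in 3.98% (Nkx2-2) to 85.9% (Ptn) of members, and Ptn was also detected in 87.0% of astrocytes. Ptprz1, a receptor tyrosine phosphatase of precursors and astrocytes, was detected in 84.2% of members, against 58.5% of astrocytes and 2.19% of microglia. Cspg5, a transmembrane proteoglycan, was detected in 64.5% of members and 45.6% of astrocytes. Olig1, a transcription factor of the oligodendrocyte lineage, was detected in 47.9% of members. In mature oligodendrocytes Olig1 was detected in 20.0%, in astrocytes in 4.06% and in microglia in 0.663%, at median depths of 583, 559 and 532 UMIs. Olig2 was detected in 26.8% of members and Sox10, which acts downstream of it, in 11.3%. Precursors with at least 1 UMI of Gpr17 were deeper, with a median of 757.5 UMIs. In them Ptprz1 was detected in 91.0%, Cspg5 in 70.2%, Olig1 in 62.9%, Olig2 in 38.2% and Sox10 in 19.7%. Mature oligodendrocytes, astrocytes and microglia were classed by at least 3 UMIs of their own markers and 0 UMIs of the 7 rule markers, so the empty upper blocks in the map of marker detection follow from their definition. The 12 astrocyte markers outside the rule summed to 2579 CPM (counts scaled to 1e6 UMIs) in members, against 25701 CPM in astrocytes, 467 CPM in mature oligodendrocytes and 479 CPM in microglia. Slc1a2 and Slc1a3 are on this list and also helped to pick the astrocyte class, so part of that gap follows from its definition. Of these markers Slc1a2, a glutamate transporter, was detected in 46.2% of members and Clu in 23.6%, while Gfap had 0 UMIs in members and was detected in 2.02% of astrocytes. The microglia list outside the rule summed to 349 CPM in members against 25834 CPM in microglia, a class that was itself picked by microglia markers.

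**Figure D1:**
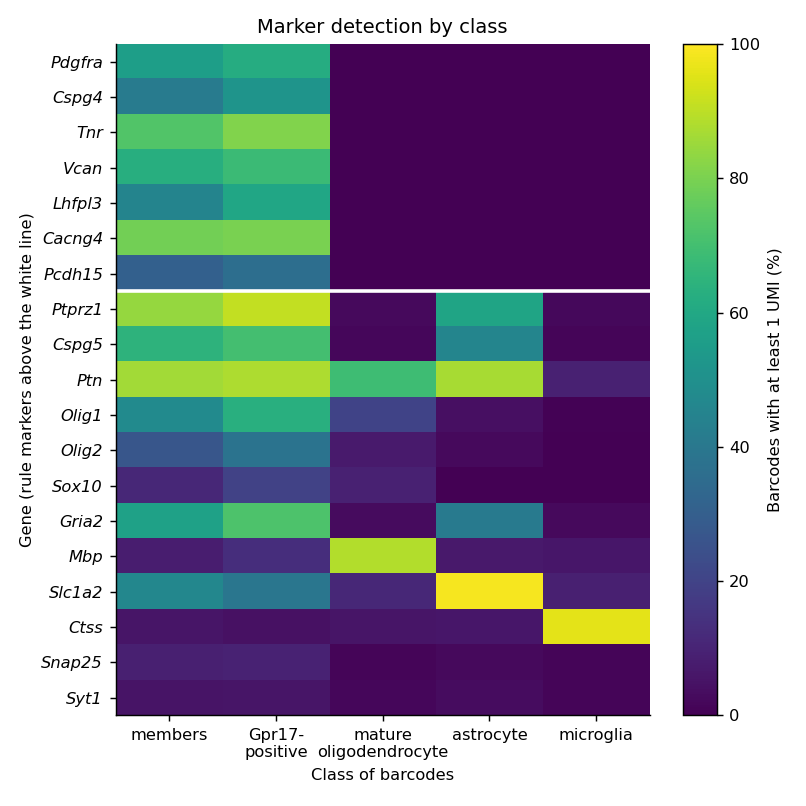
Percentage of barcodes with at least 1 UMI (colour) for rule markers above the white line and other genes below it (rows), in 5 classes of barcodes (columns). Ptprz1 was detected in 84.2% of members, 91.0% of Gpr17-positive cells and 58.5% of astrocytes. Olig1 was detected in 47.9% of members, 62.9% of Gpr17-positive cells, 20.0% of mature oligodendrocytes and 0.663% of microglia.

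The rule had no limit on neuronal transcripts, and a minority of members went against the label. At least 3 UMIs of 12 neuron markers were carried by 36 members (4.77%), which held 12.3% of all member UMIs. Those 36 had a median of 1203.5 UMIs against 576.5 in the other 718. Summed over them, Syt1, a synaptic vesicle calcium sensor, reached 3959 CPM against 33.0 CPM in the other members. Syt1 is 1 of the 12 markers that picked these members, so its gap follows from that choice. Meg3, a long noncoding RNA abundant in neurons that is not among those markers, reached 8813 CPM against 751 CPM. Ptprz1 was at 572 CPM against 4119 CPM and Pdgfra at 249 CPM against 1636 CPM. Their distribution was uneven: in THY-Tau22 male 3 they were 4 of 10 members and held 60.3% of the UMIs, in WT female 1 they held 26.9%, and in THY-Tau22 male 1, WT female 2 and THY-Tau22 female 4 there were none. Whether these barcodes are doublets, neurons or precursors with captured neuronal RNA cannot be told apart here. Scrublet, a doublet caller, marked 27 members (3.58%), but it marked 0.0718% of barcodes in THY-Tau22 male 3 against 5.24% over the 14 libraries.

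**Figure D2:**
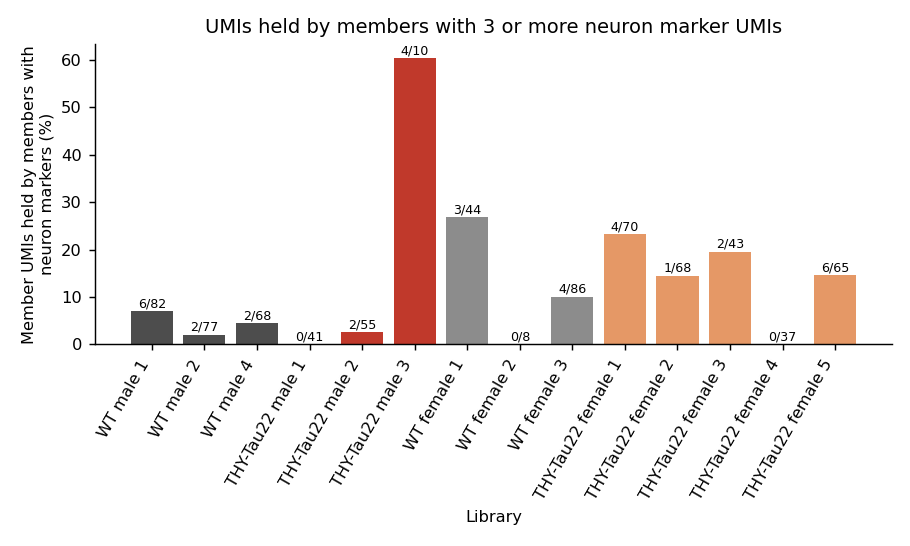
Percentage of each library's member UMIs (y axis) held by members with at least 3 UMIs of 12 neuron markers; the fraction over each bar is those members out of all members, and colours mark the 4 groups. THY-Tau22 male 3 stands highest at 60.3% and 3 libraries are at 0.

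At the edges of the rule the label weakened. The 158 barcodes just outside the marker limit, with a sum of 2, had Olig1 at 184 CPM and Ptprz1 at 1205 CPM. Just inside it, 105 members with a sum of 3 had Olig1 at 487 CPM and Ptprz1 at 1488 CPM, and 96 with a sum of 4 had 841 CPM and 3210 CPM. The 553 members with a sum of 5 or more had 1425 CPM and 4158 CPM. Neuron markers summed to 7169 CPM in members with a marker sum of 3 and to 684 CPM in those with 5 or more. At the other limit, 114 members (15.1%) carried 1 UMI of another lineage and had Olig1 at 1050 CPM, against 825 CPM in the 38 barcodes with 2 such UMIs.

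Beyond markers, members expressed receptor, matrix and growth control genes in all or most libraries. Gria2, the AMPA receptor subunit that limits calcium entry, was detected in 57.3% of members, 71.9% of Gpr17-positive precursors, 41.1% of astrocytes and 2.54% of microglia, and its level in members ran from 1187 through a median of 1536 to 1934 CPM. Gria3 was detected in 26.8% of members, 30.9% of Gpr17-positive precursors and 0.882% of astrocytes. Gria4 was detected in 16.4% of members, 20.8% of Gpr17-positive precursors, 3.41% of mature oligodendrocytes and 0.604% of astrocytes. The sodium channel gene Scn3a was detected in 15.3% of members, 16.9% of Gpr17-positive precursors and 0.325% of astrocytes. Ptn, the growth factor pleiotrophin and a ligand of Ptprz1, was detected in 85.9% of members but also in 87.0% of astrocytes and 69.0% of mature oligodendrocytes. Ccnd1, the cyclin that drives entry into the cell cycle, was detected in 35.1% of members, 39.9% of Gpr17-positive precursors, 12.6% of microglia, 2.23% of astrocytes and 0.770% of mature oligodendrocytes. Transcripts of dividing cells were rare: 6 members (0.796%) carried 3 or more UMIs of 9 S, G2 and M phase genes, 1 or 2 in each of the 4 groups, and 1 cell held 29.3% of those UMIs. Mbp, a myelin protein gene, was at 127 CPM in members against 116 CPM in astrocytes and 113 CPM in microglia. The list of 19 myelin and mature oligodendrocyte genes summed to 3886 CPM in members, 2720 CPM in astrocytes and 1747 CPM in microglia. The source of these UMIs was not tested.

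To ask what else distinguished members from precursors with Gpr17, they were compared with the 178 barcodes that met every other criterion and had at least 1 UMI of Gpr17, 19.1% of 932 precursors. The Gpr17-positive cells were deeper, with a median of 757.5 UMIs, and a deeper cell is more likely to show a Gpr17 UMI. Of 4228 genes tested in 12 libraries, 22 (0.52%) were called, which required an edgeR adjusted p under 0.05 together with a log2 fold change of 0.5 or more in either direction. Relative to members, 10 were higher in Gpr17-positive cells and 12 were lower.

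The higher calls included the early differentiation genes Bcas1 and Enpp6. The Gpr17-positive fraction was not uniform, and 140 of its cells had only 1 UMI of Gpr17. In those cells Enpp6 was at 74.6 CPM, against 586 CPM in the 38 cells with 2 or more. The 38 cells were also deeper, with a median of 1187.5 against 716 UMIs. Bcas1, a marker of oligodendrocytes that are starting to myelinate, ran from 119 through a median of 277 to 648 CPM in members and from 0 through 368 to 2180.5 CPM in Gpr17-positive cells. The ranges overlapped, and Bcas1 was higher in Gpr17-positive cells in 8 of 12 libraries (log2 fold change 1.08 ± 0.28 SE, edgeR adjusted p = 0.0286). Enpp6, a phosphodiesterase of newly formed oligodendrocytes, was seen in 5 members (9 UMIs) and in 8 Gpr17-positive cells (38 UMIs), of which 1 cell held 34.2% (3.23 ± 0.66 SE, edgeR adjusted p = 0.000824). It was higher in 3 libraries and at 0 in both fractions in 7 of the 12. Chn2, a GTPase-activating protein for Rac, was higher in 8 of 12 libraries (2.44 ± 0.53 SE, edgeR adjusted p = 0.00237). Nfasc, an adhesion molecule of the axon and glia contact that is named after its values were seen, was higher in 7 of 12 (1.59 ± 0.42 SE, edgeR adjusted p = 0.0371). Bcas1 was highest in the Gpr17-positive cells of WT female 3, at 2180.5 CPM against 275 CPM in that library's members. Without this library Bcas1 was at 0.68 (adjusted p = 0.897), Chn2 at 1.95 (adjusted p = 0.244) and Nfasc at 0.96 (adjusted p = 0.947), and Enpp6 was no longer tested. With TMM scaling in place of UMI totals, Bcas1 was at 0.54 (adjusted p = 0.398), while Enpp6 stayed called at 2.88.

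**Figure D3:**
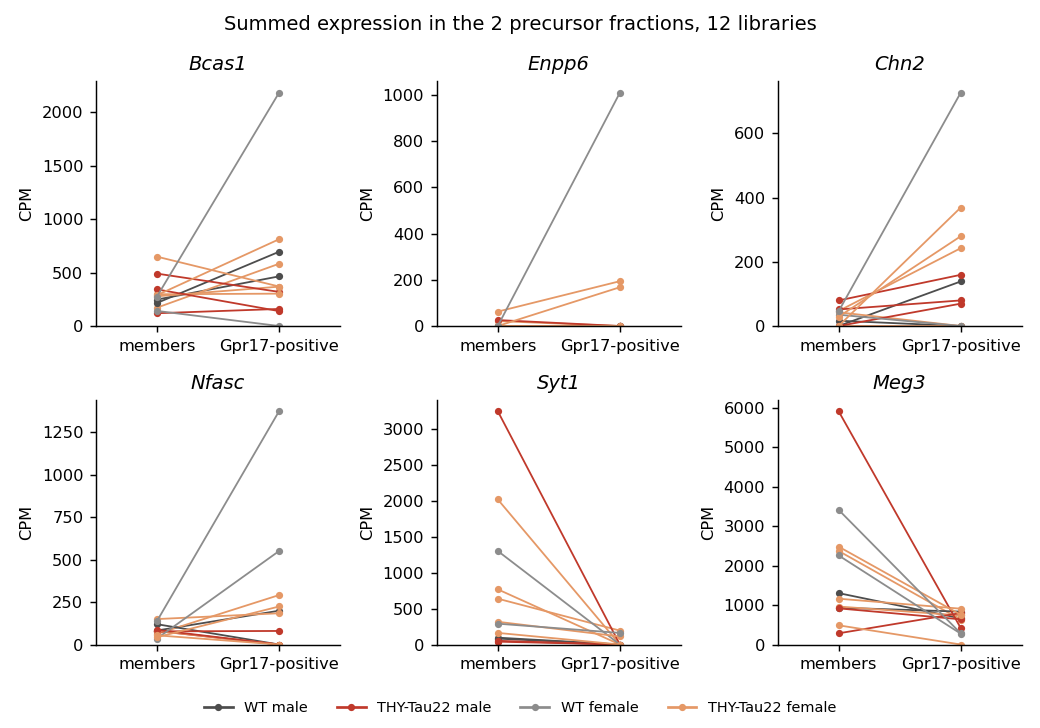
Summed expression in CPM (y axis) of 6 genes in members and in Gpr17-positive cells of the same library; each line is 1 of 12 libraries, coloured by group. Bcas1 was higher in Gpr17-positive cells in 8 of 12 libraries, with WT female 3 at 2180.5 CPM, and Syt1 was lower in all 12.

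Of the committed precursor list, 8 of 20 genes were tested, 2 were called higher, Enpp6 and Bcas1, and the median log2 fold change was 0.66, against 0.02 over all genes tested. Of the 12 lower calls 2, Syt1 and Nrgn, were in the neuron marker list, and 2, Grin2a and Grin2b, were in the receptor list. Syt1 was lower in Gpr17-positive cells in 12 of 12 libraries, with a median of 304 CPM in members and 0 CPM in Gpr17-positive cells (log2 fold change -3.00 ± 0.40 SE, edgeR adjusted p = 2.05e-10). Meg3 was lower in 11 of 12 (-1.57 ± 0.21 SE), and Grin2b, an NMDA receptor subunit, was lower in 9 with no library higher. Scg2 and Grin2a had no UMI in any of the 12 Gpr17-positive sums. Mef2c, a transcription factor of neurons and microglia, and the sodium pump subunit Atp1b1 were each lower in 9 of 12 libraries. All 7 tested neuron markers had negative values, with a median of -2.63. These markers belong to the list that picked the 36 members described above, so leaving those cells out also removes the markers' own signal. With a marker sum of at least 5 in both fractions Syt1 was at -0.34 (edgeR adjusted p = 1). Without cells that carried neuron markers, 9 of 3433 genes (0.262%) were called, 8 higher and 1 lower. Bcas1 (1.06 ± 0.27 SE), Enpp6 (3.60 ± 0.68 SE) and Nfasc (1.78 ± 0.42 SE) remained called, Mbp was then called at 1.53, and Meg3 was at -0.19. DESeq2 called 0 of the 4228 genes, with 119 at an unadjusted p under 0.05, where edgeR had 251. No gene of the 24 in the list of other precursor markers was called, and their median was 0.17.

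The study compared genotypes in each sex, and the abundance of members was compared first. In WT males the share of kept barcodes was 3.25%, 4.28% and 4.76%, and in THY-Tau22 males it was 2.52%, 2.79% and 0.718%. These groups did not overlap, but the difference of -2.09 percentage points had an exact two-sided permutation p of 0.10, the smallest that 3 against 3 allows (4.09% ± 0.773 against 2.01% ± 1.13, SD). WT females had 3.15%, 0.714% and 3.63%, and THY-Tau22 females ran from 2.12% through a median of 3.04% to 4.93%. The female groups overlapped in part, with WT female 2 below and THY-Tau22 female 2 above the other group (2.50% ± 1.56 against 3.25% ± 1.09, SD, exact permutation p = 0.482). The difference of the male and female differences was -2.84 percentage points (exact permutation p = 0.0509, adjusted over 4 comparisons 0.200), and the average over both sexes was -0.667 (exact permutation p = 0.391). Without WT female 2 and THY-Tau22 male 3 the male difference was -1.44, the female one was -0.139 and their difference was -1.30 (exact permutation p = 0.300). Shares of a suspension depend on how the tissue dissociated, so they need not equal shares in the cortex.

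**Figure D4:**
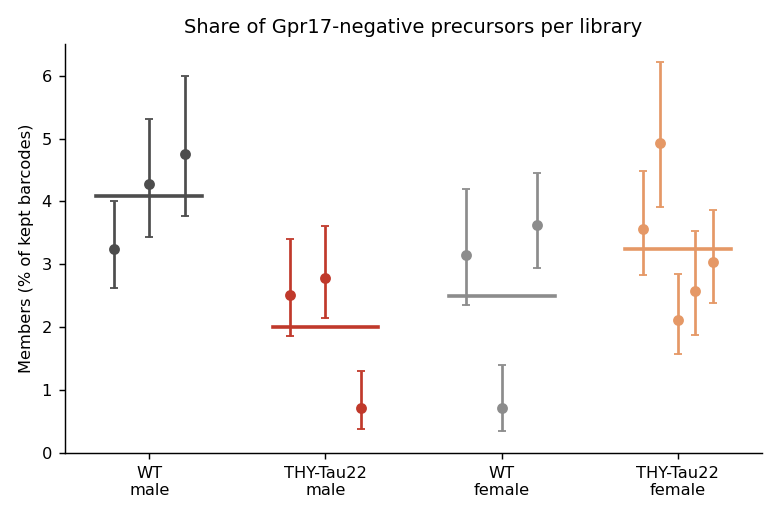
Members as a percentage of kept barcodes (y axis) in each of 14 libraries by group, with 95% Wilson intervals that cover counting error only; horizontal lines are group means. WT female 2 (0.714%, interval 0.362% to 1.40%) and THY-Tau22 male 3 (0.718%, interval 0.390% to 1.32%) lie below the other libraries.

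Expression within members was then compared between genotypes in UMIs summed per library. In males no gene was called among 935 tested (0.0%), and 66 (7.06%) had an unadjusted p under 0.05. The smallest p-values belonged to genes encoded in mitochondria. For mt-Cytb, cytochrome b of respiratory complex III, WT males had 395, 813 and 481 CPM and THY-Tau22 males 1353, 1418 and 4281 CPM. For mt-Nd1, a subunit of complex I, the values were 560, 526 and 380 CPM against 1393, 851 and 3339 CPM. The male log2 fold changes were 1.95 ± 0.46 SE for mt-Cytb and 1.75 ± 0.42 SE for mt-Nd1 (edgeR adjusted p = 0.0603 for each), and neither passed the threshold.

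Gm42418, a noncoding RNA gene on chromosome 17 that overlaps ribosomal RNA sequence, was at 8947, 3777 and 11650 CPM in WT males and at 1353, 2707 and 1284 CPM in THY-Tau22 males. Its male log2 fold change of -2.23 ± 0.58 SE did not pass either (edgeR adjusted p = 0.106). Cox7a2 (2.67 ± 0.75 SE) and Syt1 (3.19 ± 0.91 SE), the other genes among the 5 smallest p-values, had edgeR adjusted p = 0.183 each. Syt1 stood at 3253 CPM in THY-Tau22 male 3 and at 39.8 and 51.6 CPM in the other THY-Tau22 males, and without that library its value was -0.91.

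Without the members that carried neuron markers, 3 of 874 genes (0.343%) were called in males. They were Gm42418 (-2.20 ± 0.51 SE, edgeR adjusted p = 0.0341), mt-Cytb (1.60 ± 0.41 SE, edgeR adjusted p = 0.0492) and mt-Nd1 (1.53 ± 0.39 SE, edgeR adjusted p = 0.0492). Without THY-Tau22 male 3, in contrast, mt-Cytb was at 1.23 (edgeR adjusted p = 0.740), mt-Nd1 at 1.05 (edgeR adjusted p = 0.740) and Gm42418 at -2.10 (edgeR adjusted p = 0.666). Of 6 tested mitochondrially encoded mRNAs, all 6 had positive male values with 5 at an unadjusted p under 0.05, and the median was 1.31 against -0.02 over all genes. The share of mitochondrial mRNA per member, a common measure of cell quality, is built from these same genes, so it is not separate evidence. Its library median averaged 0.278% ± 0.0822 in WT males and 0.978% ± 0.522 in THY-Tau22 males (SD, exact permutation p = 0.10). Malat1, a nuclear noncoding RNA, took 7.30% ± 0.699 and 4.47% ± 1.23 of member UMIs (SD, exact permutation p = 0.10). The part of cell quality in the male differences was not tested.

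**Figure D5:**
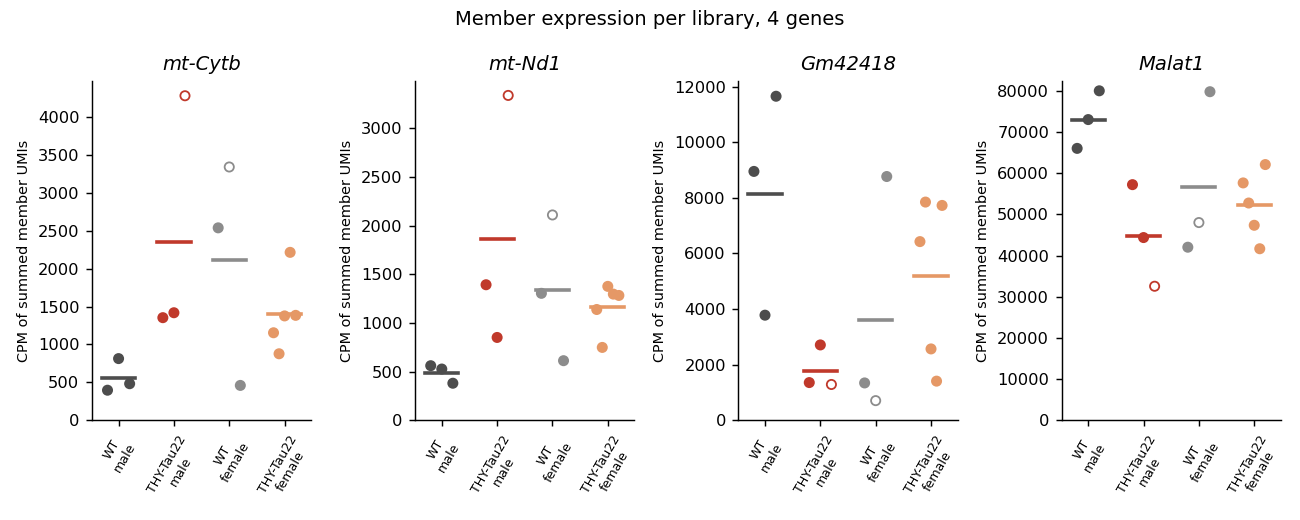
CPM of summed member UMIs (y axis) for 4 genes in 14 libraries by group; horizontal lines are group means, and open circles are the libraries with 10 or fewer members. For mt-Cytb and mt-Nd1 the 3 THY-Tau22 males lie above the 3 WT males, and for Gm42418 and Malat1 they lie below. The share of all genes with such a separation is not given here, and none of the 4 genes was called.

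In females no gene of 935 was called (0.0%), and 22 (2.35%) had an unadjusted p under 0.05. The smallest adjusted p was 0.999. For mt-Cytb WT females had 2538, 3341 and 459 CPM, and THY-Tau22 females ran from 876 through a median of 1376 to 2215 CPM, inside the range of the WT females (-0.32 ± 0.40 SE). Gm42418 was at 1339, 703 and 8763 CPM in WT females and from 1404 through 6423 to 7844 CPM in THY-Tau22 females, again within it (0.37 ± 0.49 SE). The 5 smallest unadjusted p-values belonged to Cdc5l, Zcchc6, Rpl26, Gm6368 and Pla2g7, whose log2 fold changes of 1.30 to 2.19 did not pass.

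The male change minus the female change was tested directly, and no gene of 935 was called (0.0%), with 42 (4.49%) at an unadjusted p under 0.05. The smallest p-values belonged to mt-Cytb (2.27 ± 0.61 SE, edgeR adjusted p = 0.436) and Gm42418 (-2.60 ± 0.76 SE, edgeR adjusted p = 0.602), and neither passed the threshold. Both passed without WT female 3, where Gm42418 was at -4.66 (edgeR adjusted p = 0.000181) and mt-Cytb at 2.75 (edgeR adjusted p = 0.00692), and without the libraries WT female 3 and THY-Tau22 female 5 together, at -4.47 (edgeR adjusted p = 0.000505) and 2.78 (edgeR adjusted p = 0.0145). Gm42418 also passed with a marker sum of at least 5 (-2.59, edgeR adjusted p = 0.00105). Over all alternatives the adjusted p ran from 0.000181 to 1.00 for Gm42418 and from 0.00692 to 1.00 for mt-Cytb. Zmynd8, mt-Nd1 and Cox7a2 followed. Averaged over both sexes no gene was called (0.0%), and 50 (5.35%) had an unadjusted p under 0.05, led by mt-Nd1 (0.93 ± 0.28 SE), Syt1, Prnp, mt-Nd4 and Ubb. DESeq2 called 0 genes in each of these 4 comparisons, with 49 in males, 14 in females, 26 for the difference and 28 for the average at an unadjusted p under 0.05.

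No gene of any list was called between genotypes. Beside the mitochondrially encoded mRNAs, the neuron markers had 2 of 4 tested genes, Camk2a and Syt1, higher in THY-Tau22 males at an unadjusted p under 0.05, with medians of 1.97 in males and -0.56 in females, and Syt1 changed sign without THY-Tau22 male 3. Of 24 further precursor markers 17 were tested, none with an unadjusted p under 0.05 in either sex, and the median log2 fold change was -0.15 in males and 0.14 in females. Ptprz1 was at -0.44 ± 0.39 SE in males and 0.34 ± 0.36 SE in females. The matrix and perineuronal net list had 8 genes tested and medians of -0.23 and 0.19, with none at an unadjusted p under 0.05. Of 7 glutamate and GABA receptor genes 1, Gria3, had an unadjusted p under 0.05, with lower values in THY-Tau22 males. The list had 6 of 7 negative values and a median of -0.48 in males, and 5 of 7 and -0.13 in females, and Gria2 was at -0.12 ± 0.35 SE in males and -0.13 ± 0.31 SE in females. The 7 immediate early and dissociation genes tested had medians of -0.39 and -0.28 and none at an unadjusted p under 0.05. Of 12 chaperones 1, Hsph1, was lower in THY-Tau22 males at that level, and of 14 ribosomal protein genes 2, Rpl26 and Rps14, were higher in THY-Tau22 females. The chaperone medians were -0.19 in males and 0.08 in females. The ribosomal protein list had 13 of 14 positive values and a median of 0.46 in males, and 8 of 14 and 0.24 in females. The 6 nuclear and ribosomal RNAs tested had medians of -0.75 and -0.05, with Gm42418 and mt-Rnr1 lower in males at that level. Of 6 committed precursor genes 1, Itpr2, was lower in males (medians -0.11 and 0.08). The inhibitors of differentiation (6 tested, medians -0.25 and 0.40) and voltage-gated and potassium channels (7 tested, 0.17 and 0.18) had none at that level. Nor had growth factor receptor signalling genes (3 tested, -0.04 and -0.08) or astrocyte markers (5 tested, 0.26 and 0.37). The antigen presentation and disease-associated oligodendroglia list also had none (3 tested, 0.43 and 0.42). In members Apoe gave 1684 of that list's pooled 2436 CPM, and H2-Aa, H2-Ab1 and H2-Eb1 had no UMI. All these list medians stand beside medians over all genes of -0.02 in males and 0.03 in females. Among genes the study listed for these cells, which were chosen on these samples and are not independent evidence, 6 of 7 were tested, and mt-Cytb, mt-Nd5 and Gm42418 had an unadjusted p under 0.05 in males and none had in females. Malat1 was at -0.77 ± 0.49 SE, mt-Rnr2 at -0.72 ± 0.57 SE and Jun at 0.43 ± 0.37 SE in males.

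Between the sexes 5 of 935 genes (0.535%) were called, all higher in females, and 46 (4.92%) had an unadjusted p under 0.05. Xist, the noncoding RNA of X inactivation, had 0 UMIs in members of all 6 male libraries and ran from 811 to 1315 CPM in the 8 female libraries, in keeping with the labels. The other 4 were Mef2c (2.33 ± 0.42 SE), the microtubule protein Map1b (1.86 ± 0.37 SE), Olfm1 (1.65 ± 0.40 SE) and Camk2n1 (1.38 ± 0.35 SE). Of the neuron markers 3 of 4 tested were higher in females at an unadjusted p under 0.05. In members with 0 UMIs of other lineage genes, none of these 4 calls remained. There the edgeR adjusted p was 0.123 for Mef2c, 0.0929 for Map1b, 0.172 for Olfm1 and 0.123 for Camk2n1. Without members that carried neuron markers, 2 of 874 genes (0.229%) were called, Xist and its antisense partner Tsix, and Camk2n1 was at 0.08 ± 0.33 SE. Mef2c, Map1b and Olfm1 fell below the filter on low counts without those members and were not tested. The cause of these 4 differences was not tested.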

How the data were processed

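The authors deposited raw UMI counts for each gene and barcode, made with the Drop-seq pipeline (version not given in the sources used here) after sequencing on a NextSeq 500; the submitters' processing notes name the build mm10. Each of 16 tables held 3000 barcodes. The members and the 23 gene lists were chosen with earlier results of these data known. Genes named in the text are, per comparison, up to 10 called genes or, with fewer than 5 calls, the 5 with the smallest unadjusted p, plus rule markers, genes listed by the study, and the 3 highest or any called members of each list.

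Counts were read in Python 3.11.15 (numpy 2.4.6, pandas 2.3.3, scipy 1.17.1) and doublets scored with Scrublet in scanpy 1.11.5 and kept. Cells are not replicates, so counts were summed per library and tested in R 4.3.3 with edgeR 4.0.16 (quasi-likelihood, TMM, filterByExpr, 1 mean per group, Benjamini-Hochberg adjustment) or, as an alternative, DESeq2 1.42.0. Members and Gpr17-positive cells were compared with the library as a block in 12 libraries that held at least 10 members and 5 Gpr17-positive cells. Genes with at least 30 UMIs were tested with scaling by UMI totals, and rule genes were left out. These settings replaced the TMM and filterByExpr of the other comparisons. The choice was made after seeing the data and a simulation whose values are not given here. It changed the count of calls, which was 22 as reported, 53 with TMM and 3 with filterByExpr. A result on 1 further gene is not reported here. Each SE of an edgeR log2 fold change was its absolute value divided by the square root of the quasi-likelihood F statistic. For shares and library measures, exact permutation tests (two-sided) were used. Each library is 1 mouse. Low depth per member limits detection, and intervals cover counting error only. Shared barcodes and sequence shared with paralogs or antisense genes (Xist and Tsix) are uncertain.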

Additional observations from a re-analysis of the deposited data

Results flagged for a closer look

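For the median share of mitochondrial mRNA in members, THY-Tau22 minus WT was 0.700 percentage points in males and -0.260 in females, a difference of 0.959 with an exact permutation p of 0.0223 that did not pass after adjustment over 20 tests (0.250). The unadjusted p also missed 0.05 when WT female 2 (0.656, exact p = 0.10), WT male 1 (0.920, exact p = 0.0643), WT male 2 (1.00, exact p = 0.0536) or WT male 4 (0.956, exact p = 0.0607) was left out.

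In the group of 5 THY-Tau22 females, 110 measures were tested for a library far from the others and 14 stood out. The measures overlap, as Cd63 is part of the antigen presentation and disease-associated sum and Slc1a2 of the astrocyte sum, so no chance rate applies to this count. THY-Tau22 female 4, with 37 members, was the outlying library for 10 of the 14. It was high for Bcas1 (648 CPM, others 171 to 297), Cd63 (486 CPM, others 54.0 to 173), Jund (1728 CPM), Rpl13 (1458 CPM) and Slc1a2 (1782 CPM). Summed over lists, it was high for inhibitors of differentiation (6266 CPM), antigen presentation and disease-associated genes (5401 CPM), microglia markers (1674 CPM, others 150 to 432), astrocyte markers (3943 CPM) and erythrocyte markers (324 CPM, others 0). In THY-Tau22 female 3, Scg2 (459 CPM) and mural and fibroblast markers (378 CPM) were high. In THY-Tau22 female 1, Grin2b was high (546 CPM) and Lhfpl3 low (530 CPM, others 1066 to 1242).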

How the results depend on the processing

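No paired analysis was possible between genotypes because replicate numbers follow accession order and pair no mice. Counts of calls in males, 0 as reported, became 2 with RLE size factors, 1 without a filter on low counts, 2 with a marker sum of at least 5, 3 without members with neuron markers, 5 with the shared library kept as WT male, 2 without the MB22 libraries (WT female 3 and THY-Tau22 female 5) and 0 to 4 with a library left out; in females they stayed at 0 throughout. Averaged over both sexes they became 1 without the filter and 0 to 2 with a library left out, and for the difference between sexes 1 with a marker sum of at least 5, 2 without the MB22 libraries and 0 to 2 with a library left out. Calls between sexes, 5 as reported, became 3 with DESeq2, 10 without the filter, 1 with a marker sum of at least 5, 1 with 0 UMIs of other lineages, 2 without neuron-marked members, 8 with all 16 libraries, 11 without the 2 libraries of 10 or fewer members and 3 to 12 with a library left out. Calls between fractions, 22 as reported, became 0 with DESeq2, 13 without the filter, 3 with filterByExpr, 8 with a marker sum of at least 5, 9 without neuron-marked cells, 53 with TMM and 7 to 21 with a library left out (7 without THY-Tau22 female 1, 13 without WT female 3). The cause was not tested.

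The male share difference was -1.92 (exact p = 0.0286) with the shared library as WT male; that of the sexes was -2.67 there (exact p = 0.0444), -2.19 with a marker sum of at least 5 (exact p = 0.0455) and -3.45 without the MB22 libraries (exact p = 0.0367). The female difference was -0.139 without the 2 small libraries. With a library left out the differences ran from -2.51 to -1.44 in males, -0.139 to 1.32 in females, -1.11 to -0.344 over both and -3.40 to -1.95 between the sexes.

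There were 1221 alternative values for named genes, counted only in settings where the gene was still tested. Of these, 1109 kept their direction and side of the threshold, 52 lost a call, 36 gained one and 24 changed sign. Genes that were not called and stayed uncalled with the same sign count among the 1109. Calls lost because a gene fell below the filter, as for Enpp6 without WT female 3, are not counted. Syt1 became -0.91 in males and -0.40 over both sexes without the 2 small libraries, and ran from -0.91 to 3.92 and from -0.29 to 2.34 with a library left out. In females, mt-Nd5 became -0.0705 without neuron-marked members, -0.33 without the MB22 libraries and -0.10 without the small libraries (-0.26 to 0.80 with a library left out), Malat1 0.0543 without the filter, 0.00968 without neuron-marked members and 0.41 without the MB22 libraries (-0.32 to 0.52), mt-Rnr2 -0.34 without the small libraries (-0.37 to 1.02), Gm42418 -0.0362 there (-0.0673 to 2.44), and mt-Cytb ran from -0.82 to 0.30. With a library left out, the female differences ran from -8.4 to 30.6 members, -2.71 to 100.3 median UMIs, -0.506 to 0.0439 percentage points of mitochondrial mRNA and -1.16 to 0.728 of Malat1, and the difference between sexes in median UMIs from -37.0 to 159.8.

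The Poisson spread of sums from 8 and 10 members limits 2 libraries, and members hold a median of 582.5 UMIs.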
